A study of Homo sapiens with 4 samples.

Results

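DNA topoisomerases relieve the twist and the tangles that arise when DNA is copied, transcribed and packed. Type I enzymes cut a single strand of the helix and type II enzymes cut both strands and pass another helix through the gap. Human cells have 6 genes that encode somatic topoisomerases, namely TOP1, TOP1MT, TOP2A, TOP2B, TOP3A and TOP3B, and these 6 were followed here among 14431 genes listed in an RNA-seq table. They were found by gene symbol, and all 6 passed the filter on low values. The group was selected on the values of TOP2A and TOP2B in the contrast below, both of which were higher in the siAARS1 libraries, so the differences of these 6 genes are given as descriptions without a test.

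The RNA came from HGC27, a human gastric cancer cell line of undifferentiated, mesenchymal type. All cells were kept in DMEM without glucose, with serum, and received 25 mM lactate, for 24 h per the labels, while the study's text gives another duration. The control group (labelled WT) and the siAARS1 group, in which AARS1 was knocked down by siRNA, had 2 libraries each. AARS1 encodes the cytosolic alanyl-tRNA synthetase, and the comparison asks which RNAs differ when its level is lowered under lactate. The labels do not say whether the duplicates came from separate cultures, so p-values measure only the spread between these libraries, which may be technical.

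Each library had between 30653210 and 33522573 reads over the listed genes. Values are in CPM, read counts scaled to the size of the library, in which 1 read equalled 0.0293 to 0.0324 CPM. AARS1 (listed as AARS) was at 428 and 417 CPM in the controls, against 292 and 298 CPM after knockdown, a mean level 69.7% of control (log2 fold change -0.52, limma adjusted p = 2.52e-11). Of the markers of the cell line, the mesenchymal gene VIM stood at 4600 to 5131 CPM, the epithelial genes KRT8 and CDH1 at 5.08 to 25.2 and 0.680 to 2.55 CPM, and the gastric lineage factors GATA6 and GATA4 at 17.6 to 26.8 and 18.6 to 23.3 CPM. COL1A1, a collagen gene of fibroblasts, was at 1541 to 2399 CPM. All 6 of these markers were lower in both siAARS1 libraries than in both controls, where 46.6% of all genes tested were. The sizes were unlike. KRT8 went from 24.8 and 25.2 CPM in control to 6.61 and 5.08 CPM in siAARS1 libraries. VIM went from 5131 and 5068 to 4710 and 4600 CPM. The remaining 8 markers fixed for the check (KRT18, EPCAM, CLDN18, MUC5AC and TFF1, and PTPRC, PECAM1 and ALB for other cells) were not analysed here. The part of these marker differences in the results below was not tested.

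The members fall into 2 kinds by base composition. This property was not itself used to choose them, but the contrast that was used varied with it over the whole table, as given below. The transcripts of TOP2B, TOP2A and TOP1 had a GC content of 38.7%, 39.1% and 42.2%, and those of TOP3A, TOP1MT and TOP3B of 55.2%, 57.5% and 59.3% (GENCODE v29, the transcript with the longest coding sequence of each gene). The central 120 bases of the longest coding exon are printed for both type II genes and both TOP3 genes. They are on the coding strand of GRCh38, with every G and C in capitals. Their GC content is not that of the whole transcript.
TOP2A (exon 21 of 35, chr17:40400906-40401025, minus strand): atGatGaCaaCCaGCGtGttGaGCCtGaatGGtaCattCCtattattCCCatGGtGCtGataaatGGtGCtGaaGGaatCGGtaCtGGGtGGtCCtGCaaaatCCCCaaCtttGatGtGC
TOP2B (exon 21 of 36, chr3:25623571-25623690, minus strand): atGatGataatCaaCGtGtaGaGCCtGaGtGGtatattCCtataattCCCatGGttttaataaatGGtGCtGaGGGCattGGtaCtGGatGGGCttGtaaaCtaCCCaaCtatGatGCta
TOP3A (exon 18 of 19, chr17:18277957-18278076, minus strand): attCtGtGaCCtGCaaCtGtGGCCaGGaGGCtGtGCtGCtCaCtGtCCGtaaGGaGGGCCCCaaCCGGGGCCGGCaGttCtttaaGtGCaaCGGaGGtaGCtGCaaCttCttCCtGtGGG
TOP3B (exon 18 of 18, chr22:21957297-21957416, minus strand): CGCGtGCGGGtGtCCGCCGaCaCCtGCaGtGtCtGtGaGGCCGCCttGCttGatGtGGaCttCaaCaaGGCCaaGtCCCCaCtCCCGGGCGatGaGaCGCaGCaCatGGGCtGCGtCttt

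The TOP2A and TOP2B stretches lie in exons of the same number and coding length (232 bases), and 97 of their 120 bases were the same (80.8%). TOP2B had A or T at 14 positions where TOP2A had G or C, and the opposite held at 6 positions. The number of G and C bases was 56 (46.7%) in the TOP2A stretch, 48 (40.0%) in TOP2B, 71 (59.2%) in TOP3A and 76 (63.3%) in TOP3B. Each stretch was thus richer in G and C than its transcript, TOP2A by the most. The TOP3A and TOP3B stretches come from unlike exons and shared 35 of 120 bases.

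TOP2A is the topoisomerase of dividing cells, which separates sister chromatids and shapes mitotic chromosomes, and its RNA is known to peak late in the cell cycle. The gene (ENSG00000131747) lies on chromosome 17 at 40388516 to 40417950 (GRCh38, minus strand). It was at 57.5 and 63.9 CPM in the control libraries and at 477 and 516 CPM in the siAARS1 libraries, from 1960, 2026, 14716 and 17170 reads. Both siAARS1 libraries were far above both controls. The means were 60.7 ± 4.51 (SD, n = 2) and 496 ± 28.3 CPM, which is 8.18-fold, and the difference on the log2(CPM + 1) scale was 3.01 (SE 0.0483). TOP2A ranked 8 from the top of 14199 genes tested, and its level within a group varied by 0.0945 (SD, log2 scale). In bulk RNA, a larger share of cells late in the cycle and more TOP2A RNA in each cell cannot be told apart.

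TOP2B is the type II enzyme that is present in cycling and resting cells alike and acts at promoters and chromatin loop anchors. Its gene (ENSG00000077097) lies on chromosome 3 at 25597905 to 25664907, minus strand. It had the lowest control level of the 6, with 27.4 and 28.5 CPM, against 170 and 176 CPM in the siAARS1 libraries. The groups were wide apart, with means of 27.9 ± 0.800 and 173 ± 4.11 CPM (SD, n = 2), a log2 difference of 2.59 (SE 0.0486). TOP2B ranked 93 from the top of all genes tested. The annotation column of the deposited table pairs this identifier with MIR4442, a microRNA gene at 25664873 to 25664939 that overlaps the TOP2B start on the same strand, and the row was read as TOP2B by its identifier and symbol. The last bases of RARB overlap the TOP2B end on the other strand. RARB, a retinoic acid receptor gene, fell from 10.6 ± 1.29 to 8.35 ± 0.271 CPM (SD, n = 2; log2 fold change -0.30, limma adjusted p = 0.0155).

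TOP1 encodes the nuclear type I enzyme that removes supercoils ahead of polymerases and is the target of camptothecin drugs. The gene (ENSG00000198900) lies on chromosome 20 at 41028818 to 41124487, plus strand. It read 68.7 and 72.3 CPM in the controls, against 167 and 173 CPM after knockdown. The groups did not overlap, and the means of 70.5 ± 2.58 and 170 ± 4.28 CPM (SD, n = 2) gave a 2.41-fold ratio and a log2 difference of 1.26 (SE 0.0443).

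The other 3 genes differed little. TOP1MT, the type I enzyme of mitochondria (ENSG00000184428; chromosome 8, 143304384 to 143359979, minus strand), read 64.2 and 66.2 CPM in the controls and 55.2 and 58.1 CPM after knockdown, a log2 difference of -0.20 (SE 0.0509). Both siAARS1 libraries were below both controls. TOP3A, which undoes crossed strands together with the BLM helicase and also serves mitochondrial DNA (ENSG00000177302; chromosome 17, 18271428 to 18315007, minus strand), read 62.1 and 65.4 CPM in the controls and 72.4 and 66.6 CPM after knockdown. The lower siAARS1 library lay just above the higher control, and the log2 difference was 0.12 (SE 0.0527). TOP3B, which acts on RNA as well as DNA (ENSG00000100038; chromosome 22, 21957025 to 21982816, minus strand), read 48.2 and 52.8 CPM in the controls and 51.3 and 50.7 CPM after knockdown. Both siAARS1 values lay between the controls, with a log2 difference of 0.015 (SE 0.0560). A listed antisense gene (LL22NC03-86G7.1), at 2.59 to 3.63 CPM, overlaps TOP3B, and reads of the pair cannot be told apart where strand was not used. TOP3B also has a processed pseudogene, TOP3BP1, on the same chromosome, with which reads could be shared.

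**Figure D1:**
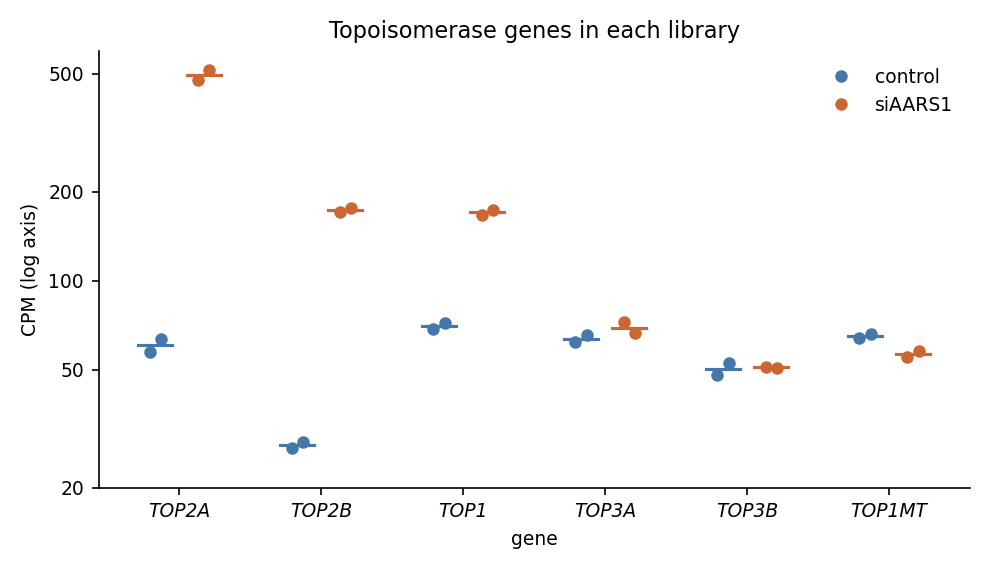
CPM of each topoisomerase gene (y axis, log scale) in the 2 control and 2 siAARS1 libraries; points are libraries and short lines are group means. TOP2A, TOP2B and TOP1 stand apart between the groups, at 496, 173 and 170 CPM in siAARS1 libraries against 60.7, 27.9 and 70.5 CPM in control, while the other 3 genes lie close together.

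In all, 4 of the 6 genes had both siAARS1 libraries above both controls, where 38.5% of all genes tested did, and 1 had both below, where 46.6% did. Libraries of the groups thus did not overlap for 5 of the 6 genes and for 85.1% of all genes. Of the 6, 3 were at least 2-fold higher (10.6% of all genes were, with an adjusted p under 0.05) and none was 2-fold lower (1.63%). Since the genes were selected on this contrast, nothing is read from these counts.

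Levels between genes were compared only per length, as CPM per kb of transcript. In control libraries TOP1MT led with 33.3 ± 0.708 (SD, n = 2), followed by TOP1 with 18.9 ± 0.690, TOP3B with 16.3 ± 1.04, TOP3A with 15.5 ± 0.580, TOP2A with 10.5 ± 0.783 and TOP2B with 5.21 ± 0.149 CPM per kb. TOP3B and TOP3A were neighbours whose libraries overlapped, and the other neighbours did not overlap. In siAARS1 libraries TOP2A led with 86.2 ± 4.91, then came TOP1 with 45.5 ± 1.15, TOP2B with 32.3 ± 0.767, TOP1MT with 28.9 ± 1.03, TOP3A with 16.9 ± 1.00 and TOP3B with 16.4 ± 0.145 CPM per kb. Only TOP3A and TOP3B overlapped again. TOP2A thus moved from next to last to the top, and TOP2B from the bottom to above TOP1MT. These levels, and the shares that follow, carry no correction for GC content, with which the log2 difference varied over the whole table.

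The sum over the 6 genes was 96.8 and 102 CPM per kb in the control libraries and 222 and 231 CPM per kb in the siAARS1 libraries. TOP2A and TOP2B together gave 15.6% and 16.0% of this sum in control and 51.7% and 53.0% in siAARS1 libraries. Counted as reads, the type II share of the 6 genes was 25.9% (95% Wilson interval 25.1 to 26.7) and 26.5% (25.6 to 27.3) in control, and 65.1% (64.6 to 65.7) and 66.5% (66.0 to 67.0) in siAARS1 libraries, intervals that cover counting error only. The summed CPM of TOP1MT, TOP3A and TOP3B stayed between 174 and 184 in all 4 libraries. The ratio of TOP2A to TOP2B per kb was 1.95 and 2.09 in control and 2.61 and 2.73 in siAARS1 libraries, so both type II genes were higher but TOP2A more so.

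**Figure D2:**
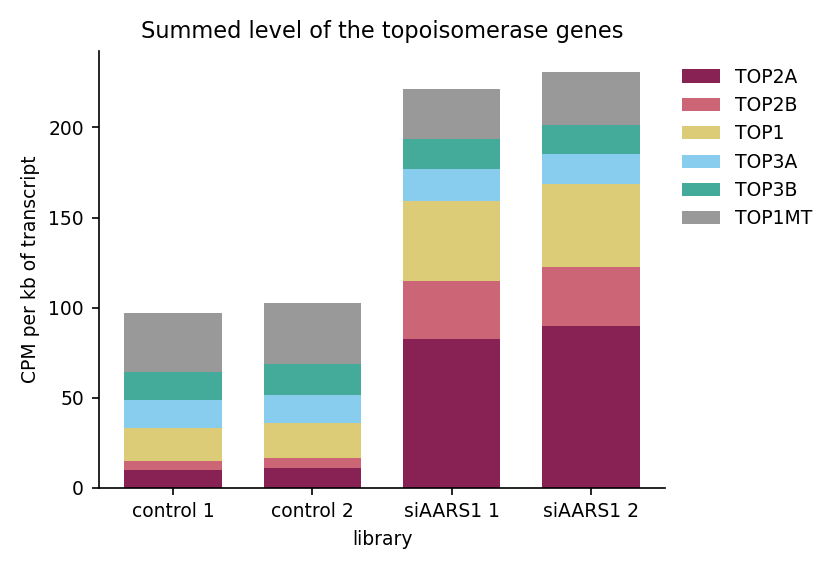
Level of the 6 genes in each library, stacked, in CPM per kb of transcript (y axis, linear from 0). The stack reaches 96.8 and 102 in control and 222 and 231 in siAARS1 libraries, and TOP2A with TOP2B makes up 15.6% to 16.0% of it in control and 51.7% to 53.0% in siAARS1 libraries.

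The log2 difference varied with base composition over the whole table. Across 13819 genes the rank correlation between the log2 difference and transcript GC content was -0.65, a description of these libraries, as genes share the libraries and are not independent. Among the 6 genes, the 3 of low GC content had the 3 largest differences, which is no support for this relation since the genes were selected on this contrast, and within each kind the order by GC content was not the order by difference. Genes were then split into 5 equal classes by GC content and 3 by transcript length, and TOP2A and TOP2B lay in the class of lowest GC content (27.8% to 41.7%) and of longest transcripts (4013 bases or more). The 1464 genes of this class had a median log2 difference of 1.03. Of them, 0.410% had a larger difference than TOP2A and 5.05% a larger one than TOP2B.

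For TOP1, in the next class by GC content (41.7% to 46.8%) and the middle class by length, the class of 909 genes had a median of 0.20, and 6.05% of it lay above TOP1. The classes of TOP1MT, TOP3A and TOP3B had medians of -0.25, -0.24 and -0.31, so TOP3A (0.12) and TOP3B (0.015) stood above the middle of their classes, with 11.2% and 12.8% of genes higher. In the class of TOP1MT, 41.5% of genes were higher. How far GC content or length contributes to these differences was not tested. When the smooth trend with transcript GC content and length was taken out of each library (the transcript correction), the log2 difference was 1.80 for TOP2A, 1.38 for TOP2B, 0.67 for TOP1, 0.38 for TOP3A, 0.34 for TOP3B and 0.11 for TOP1MT. With the GC content and length of the coding sequence and of the 3' UTR in its place (the coding and UTR correction), these values were 0.87, 0.43, 0.30, 0.35, 0.27 and 0.051. TOP2A was the highest of the 6 under both, and TOP1MT changed from lower to higher. These corrections also take out any true change that follows the same properties.

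**Figure D3:**
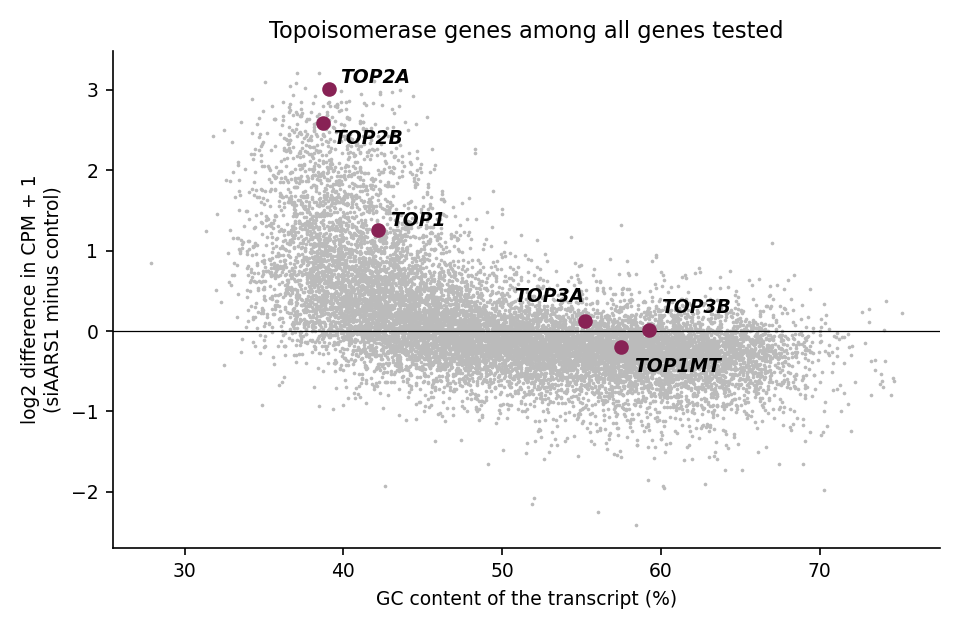
GC content of the transcript in percent (x axis) against the log2 difference of CPM + 1, siAARS1 minus control (y axis); grey dots are the genes tested that have a GC value and large dots the topoisomerase genes. TOP2A (3.01), TOP2B (2.59) and TOP1 (1.26) sit on the side of low GC content and TOP3A, TOP1MT and TOP3B, between 0.12 and -0.20, on the side of high GC content.

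**Figure D4:**
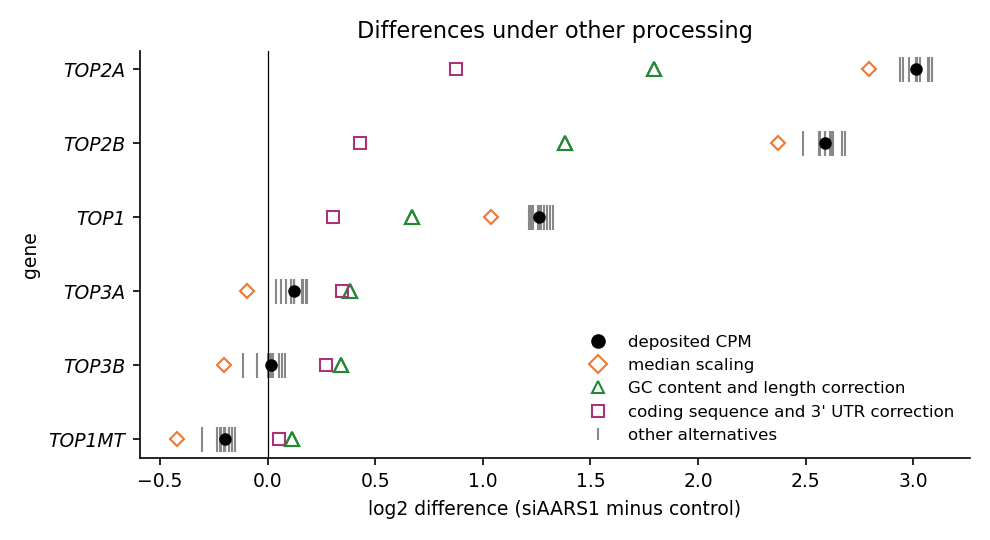
Log2 difference of each topoisomerase gene (x axis) from the deposited CPM and under the alternatives; black dots are the deposited CPM, diamonds median scaling, triangles the transcript correction with and without the replicate block, squares the coding and UTR correction and ticks the other alternatives. TOP2A runs from 0.87 to 3.09 and TOP2B from 0.43 to 2.68, while TOP1MT, TOP3A and TOP3B lie on both sides of 0.

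RefSeq promoter windows (GRCh38.p14) of 250 bases before the RefSeq start were read for 5 of the 6 genes, all but TOP1MT. RefSeq starts differ from the GENCODE starts in the gene coordinates above. By the latter, the windows of TOP2A, TOP1, TOP3A and TOP3B reach into the gene, that of TOP2A furthest. The last CCAAT copy of the TOP2A window lies in that part. CCAAT boxes, letters CCAAT on either strand, bind the factor NF-Y in many cell cycle promoters, and TTTGAA on either strand is a form of the cell cycle homology region. TOP2A held 4 CCAAT and 2 TTTGAA, and TOP2B held 2 and 1, while TOP1, TOP3A and TOP3B held neither. Of 34943 windows of this length, 32.0% held at least 1 CCAAT, 9.54% at least 2 and 0.879% at least 4, and 13.4% held at least 1 TTTGAA. The core of the GC box, GGGCGG on either strand, did not separate the genes, with 1 copy in TOP2A and TOP1, 2 in TOP2B and TOP3A and none in TOP3B, where 42.5% of all windows held at least 1. The windows of both type II genes are shown with CCAAT and TTTGAA, on either strand, in capitals.
TOP2A (chr17:40417897-40418146, minus strand): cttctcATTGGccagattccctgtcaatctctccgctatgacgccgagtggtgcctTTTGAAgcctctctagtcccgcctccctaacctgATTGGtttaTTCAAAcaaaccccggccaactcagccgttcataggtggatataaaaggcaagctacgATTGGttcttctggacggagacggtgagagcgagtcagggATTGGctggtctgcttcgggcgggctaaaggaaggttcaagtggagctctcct
TOP2B (chr3:25664908-25665157, minus strand): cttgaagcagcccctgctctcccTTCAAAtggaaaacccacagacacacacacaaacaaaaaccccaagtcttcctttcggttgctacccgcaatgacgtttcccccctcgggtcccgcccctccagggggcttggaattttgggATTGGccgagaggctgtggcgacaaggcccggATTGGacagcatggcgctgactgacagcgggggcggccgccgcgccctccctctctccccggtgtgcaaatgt

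No CCAAT copy overlaps a TTTGAA copy in either window. The GC content of the windows was 53.2% for TOP2A and 61.2% for TOP2B, against 60.8% to 66.8% for the other 3. A match in letters is a description and not a bound site.

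Genes with the pattern most like TOP2A over the 4 libraries were RANBP2, BCLAF1 and ASCC3, at Euclidean distances of 0.0188, 0.0476 and 0.0522 on centred log2(CPM + 1) values among 11614 genes. RANBP2 encodes a nuclear pore protein that attaches SUMO to TOP2A. BCLAF1 takes part in RNA processing and ASCC3 is a helicase. Those most like TOP2B were VPS13C, ANLN and KIF14, at 0.0316, 0.0344 and 0.0350, a lipid transfer protein and a pair of cytokinesis proteins. The transcripts of these 6 genes had GC contents of 36.6% to 40.0%, the range in which TOP2A and TOP2B lie. With 2 libraries in each group, a short distance means above all a difference of like size.

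Proteins that bind or modify topoisomerases were examined next, with the test across all genes, in which 32.6% of 14199 genes were called higher and 38.0% lower in siAARS1 (limma adjusted p under 0.05) and the median log2 fold change was -0.054. Of 30 partners and modifiers, 18 rose, 6 fell and 6 did not pass, with a median of 0.75. RANBP2 had the largest rise, from 9.65 and 10.7 CPM to 85.4 and 91.5 CPM (limma adjusted p = 1.74e-19), although it has close copies in the genome between which reads could be split. TOPBP1, a scaffold of the replication checkpoint first found as a binder of TOP2B, rose from 12.9 and 13.7 to 83.3 and 80.3 CPM.

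The partners of TOP3A did not move as a unit. BLM rose from 4.52 and 5.33 to 32.4 and 32.8 CPM (log2 fold change 2.51) and RMI1 rose from 14.0 and 15.6 to 52.4 and 60.4 CPM (1.86). RMI2, the small subunit of that complex, fell from 18.8 and 19.6 to 14.3 and 15.3 CPM (-0.36), and TOP3A itself was at 0.12. Of the partners of TOP3B, TDRD3 rose by 1.23 and FMR1 by 0.99 on the log2 scale, FXR2 fell by 0.20, and TOP3B was at 0.015. ERCC6L, a helicase that works on the same ultrafine anaphase bridges as TOP2A, rose by 2.05.

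Among proteins that act on TOP1, TOPORS, its ubiquitin and SUMO ligase, rose by 1.88, and NCL, the abundant nucleolar protein that binds it, rose from 1045 and 1044 to 2101 and 2134 CPM. BTBD1 rose by 0.61 on the log2 scale and BTBD2, its close relative, fell by 0.33. RNF4, a ubiquitin ligase for SUMO-marked proteins, fell by 0.19. The list median was 0.15 with the transcript correction, where that of all genes was -0.0084, and 0.14 with the coding and UTR correction. Of the genes named above, BTBD2, FXR2 and FMR1 changed sign under both corrections and RNF4 and RMI1 under the coding and UTR correction. BTBD1 lost its call under the transcript correction, and RMI2 lost its call under the coding and UTR correction. Of the other called members, CUL3 (0.90), HDAC2 (0.63), RNF2 (0.27) and SMARCA4 (-0.18) changed sign under both. With the transcript correction they were at -0.52, -0.88, -0.72 and 0.17. SUMO2 (-0.10) changed sign under the coding and UTR correction.

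Enzymes that clear a topoisomerase trapped on DNA gave a similar count, with 18 of 30 genes higher, 7 lower and 5 not past the threshold. Of all genes, 32.6% were called higher and 38.0% lower. The median log2 fold change of the list was 0.63. TDP2, which removes trapped TOP2, rose from 27.9 and 28.8 to 44.1 and 43.7 CPM (log2 fold change 0.61). TDP1, which removes trapped TOP1, fell from 50.6 and 54.1 to 43.3 and 43.9 CPM (-0.26). Thus the 2 tyrosyl-DNA phosphodiesterases were called in opposite directions, and they stayed so under both corrections.

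ZNF451, the SUMO ligase that aids TDP2, rose by 1.79, and the protease SPRTN rose by 0.39. The largest rises were in RBBP8 (2.61), RAD50 (2.52), ATR (2.50) and ATM (2.48), which trim, hold or signal DNA ends. In that order they were at 1.79, 1.41, 1.27 and 0.99 with the transcript correction. With the coding and UTR correction they were at 1.11, 0.49, 0.32 and -0.031. RBBP8 went from 9.33 and 11.1 to 64.6 and 69.5 CPM. MUS81, a nuclease that cuts stalled forks, fell from 37.3 and 36.3 to 29.3 and 28.1 CPM (-0.35). The list median was 0.30 with the transcript correction and 0.059 with the other. Of the genes named above, SPRTN turned negative under both, ATM and ZNF451 under the coding and UTR correction, and MUS81 lost its call under both. Of the other called members, ERCC4 (0.96), XRCC1 (-0.19) and ERCC1 (-0.22) changed sign under both. With the transcript correction they were at -0.20, 0.12 and 0.11. XRCC5 (0.75) changed sign under the coding and UTR correction, to -0.040.

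The list of loop and axis partners holds CTCF, cohesin and condensin with their loaders and regulators, and the chromosome kinesin KIF4A, next to which TOP2B and TOP2A sit on loops and mitotic axes. Of its 20 genes, 16 rose, 1 fell and 3 did not pass, where 32.6% of all genes were called higher and 38.0% lower. The median log2 fold change was 1.33. The median GC content of these 20 genes was 41.0%, against 49.8% for all genes tested, and its part in these counts was not tested. STAG2, a cohesin subunit, rose from 18.0 and 16.2 to 160 and 171 CPM (3.20), and the condensin subunit SMC2 rose from 10.8 and 10.6 to 90.2 and 98.3 CPM (3.03). NIPBL, which loads cohesin, and PDS5B, which holds it, rose by 2.80 and 2.78. With the transcript correction STAG2, SMC2, NIPBL and PDS5B were at 1.99, 1.67, 1.40 and 1.29. With the coding and UTR correction they were at 1.15, 0.84, 0.26 and 0.28. NCAPD2 was the member called lower, at -0.19. The list median was 0.54 with the transcript correction, under which NCAPD2 turned to 0.0035, and 0.28 with the coding and UTR correction. Of the other called members, NCAPG2 (0.62) changed sign under both corrections, to -0.24 and -0.63. WAPL (1.57) and NCAPD3 (0.25) did so under the coding and UTR correction, to -0.26 and -0.28.

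Genes whose RNA peaks with TOP2A in G2 and mitosis were called in both directions. Of 35, 16 rose (45.7%), 12 fell (34.3%) and 7 did not pass, where 32.6% of all genes were called higher and 38.0% lower. At least 2-fold higher and called were 11 of the 35, where 10.6% of all genes were. At least 2-fold lower and called were 0, where 1.63% of all genes were. The median log2 fold change was 0.0019, near that of all genes. It was 0.088 with the transcript correction and 0.062 with the coding and UTR correction. How far GC content contributes to the split was not tested. ANLN (2.56), TTK (2.54), CENPF (2.39) and ECT2 (2.37) rose most, and MKI67, the usual marker of cycling cells, rose from 47.3 and 47.9 to 233 and 234 CPM (2.27). PTTG1 (-0.50), AURKB (-0.41), CDC25C (-0.40) and UBE2S (-0.29) fell most. AURKB, the kinase of the chromosomal passenger complex, went from 134 and 129 to 97.4 and 100 CPM. No member of this list reached the difference of 3.01 seen for TOP2A. Nothing is read from this, as TOP2A was selected on this contrast and was not put on the list. Of the genes named above, CENPF lost its call under the coding and UTR correction and UBE2S under the transcript correction, and UBE2S changed sign under the former. Of the other members called lower, PLK1, UBE2C, CDCA8 and TACC3 turned positive under both corrections. CDC20 did so under the transcript correction and BIRC5 under the coding and UTR correction. Under the latter, BUB1 (0.85), TPX2 (0.21) and CENPE (2.05), called higher, turned to -0.37, -0.21 and -0.053.

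**Figure D5:**
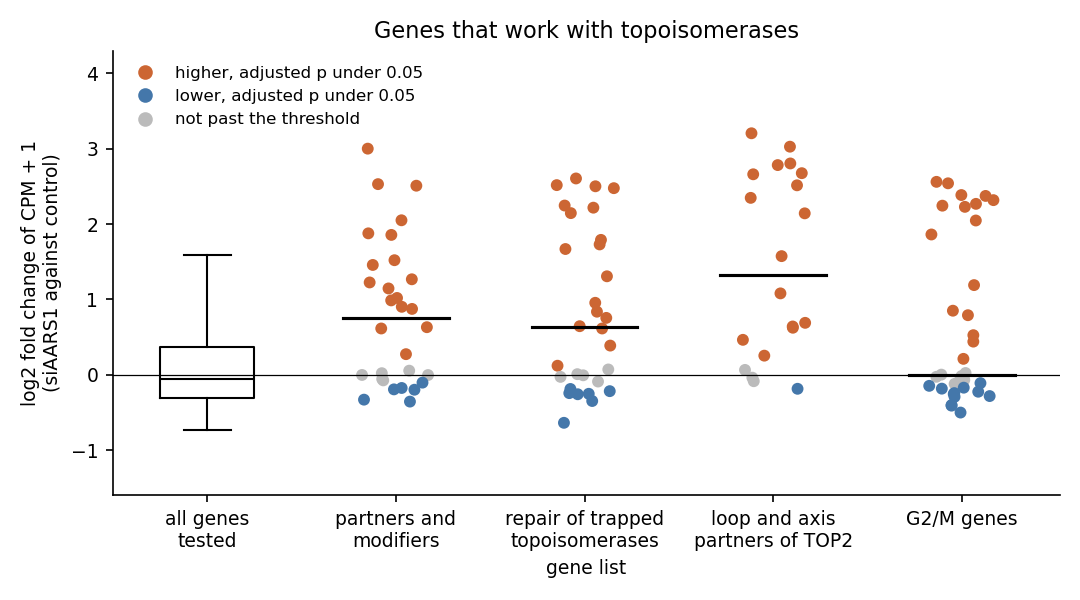
Log2 fold change of CPM + 1 (y axis) for all genes tested, as a box with the median, quartiles and whiskers at the 5 and 95 percentiles, and for the genes of 4 lists, 1 point a gene, orange if called higher, blue if called lower and grey if neither by limma, with a line at the list median. The list medians are 0.75, 0.63, 1.33 and 0.0019 from left to right, and the G2/M list runs from -0.50 to 2.56.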

How the data were processed

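RNA-seq of 4 HGC27 libraries (2 control, 2 siAARS1) was taken from the table the authors deposited. The deposited values are CPM for 14431 genes, each above 1 CPM in at least 1 library. The submitters' processing notes name RSEM 1.3.3 and hg38, with no role or order. The aligner, the way reads were counted, the use of strand and the annotation were not given in the sources used here. In each library 100% of the CPM values matched a whole number of reads (within 0.05 of a read), so reads could be recovered, with 9806 genes called by edgeR on them. Groups came from the sample titles.

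Differences of log2(CPM + 1) were fitted in R 4.3.3 with limma 3.58.1 and its trended prior, for 14199 genes that averaged 1 CPM or more in a group. This scale understates changes of low genes. P-values were adjusted by the Benjamini-Hochberg method across these genes, with a threshold of 0.05. The code was tested on simulated data. The 6 members and the 4 lists (partners and modifiers, repair of trapped topoisomerases, loop and axis partners, G2/M genes) were chosen with earlier results of these data known. Named list genes were up to 4 called rises and 4 called falls per list, genes that bind a topoisomerase or act on a trapped one, AARS1 and MKI67. Of the genes this rule names, 2 are not reported here. Nearest patterns were sought among genes averaging 5 CPM or more in a group. CPM per kb and GC content used 1 GENCODE v29 transcript a gene (GRCh38, matched by gene ID, with 97.2% of genes found), which may not be the authors' annotation. The transcript correction (mgcv 1.9.3) covered 13819 genes, the coding and UTR correction 12192. Alternatives on recovered reads used edgeR 4.0.16 and DESeq2 1.42.0. Others changed the scaling, pseudocount, filter and threshold, added a replicate block or left out 1 library.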

Additional observations from a re-analysis of the deposited data

How the results depend on the processing

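The log2 differences of TOP2A, TOP2B and TOP1 were above 0 under all 16 alternatives, at 0.87 to 3.09, 0.43 to 2.68 and 0.30 to 1.32. The other threshold, the lack of a filter and the replicate block cannot change a log2 difference, so not all 16 are separate checks. Without the corrections for transcript properties they were 2.79 to 3.09, 2.37 to 2.68 and 1.04 to 1.32, and with 1 library left out 2.94 to 3.09, 2.56 to 2.62 and 1.22 to 1.3. TOP3A turned to -0.10 under median scaling, which moves the median of all genes from -0.054 to -0.27, and TOP3B ran from -0.20 to 0.34. TOP1MT turned to 0.11 with the transcript correction (the same with the replicate block) and to 0.051 with the coding and UTR correction. AARS1 stayed called lower throughout, at -0.74 to -0.30.

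All genes called numbered 8069 to 11479, against 10032, and 8905 to 9326 with 1 library left out. Higher genes made up 46.2% of the calls and 28.8% under median scaling. List genes called lower were then 12 of the partners, 13 of the repair list, 4 of the loop and axis list and 19 of the G2/M list. Loop and axis genes called lower were 2 under quantile normalization, 4 with the coding and UTR correction, and 1 to 2 with 1 library left out (2 without siAARS1 replicate 1). G2/M genes called lower were 7 with the transcript correction, block or not, and repair genes called lower were 4 in DESeq2.

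Named genes that changed sign with the transcript correction, at equal values when the block was added, were BTBD2 (0.063), FXR2 (0.13), FMR1 (-0.13), SPRTN (-0.39) and NCAPD2 (0.0035). Under the coding and UTR correction BTBD2 (0.021), FXR2 (0.088), RNF4 (0.051), RMI1 (-0.0048), FMR1 (-0.064), ATM (-0.031), SPRTN (-0.21), ZNF451 (-0.16) and UBE2S (0.094) did so. In DESeq2, FXR2 (-0.15) lost its call. The cause was not tested. Both groups carry replicate numbers 1 and 2, but no label says that a number marks a pair, and the deviations of libraries with the same number had a correlation of 0.118. With the replicate block alone 10389 genes were called, and no call of a named gene changed.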
